A study of Mus musculus with 2 samples.

Results

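The genes described here had accessible chromatin at a transcription start inside the gene and none at the gene's 5′ end. They were taken from 20807 protein-coding genes on the 19 autosomes in release 21 of the mouse GENCODE annotation, of which 11270 had an annotated transcript start more than 2 kb downstream of the 5′ end of the gene record, here called an internal start. A gene was a member when a peak of the shorter peak list lay within 500 bases of the same internal start in both libraries, and none of the 4 peak lists held a peak within 500 bases of its 5′ end. At internal starts, peaks within 500 bases of a start of another gene were left out. At 5′ ends such peaks were counted. The rule gave 521 members, 4.62% of the 11270 eligible genes. Peaks chose them, so the presence and the height of those peaks are a description with no test. Base composition, footprints, consensus sequences and the annotation beyond the positions of starts were not used in the choice of members. The number of transcripts was used only to choose between tied open starts of a gene. The members were chosen with earlier results in view, so these values too are set beside other genes without a p-value.

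The data are DNase-seq of urinary bladder tissue from male B6CASTF1/J mice aged 36 days, and the series has 1 group with 2 libraries from separate animals. DNase-seq maps where the nuclease DNase I can cut chromatin, and a peak is a short stretch that was cut far more often than its surroundings. B6CASTF1/J animals are F1 hybrids of C57BL/6J and CAST/EiJ, and the mm10 reference is that of C57BL/6J, so reads of CAST/EiJ origin were aligned to a sequence of the other strain. There is no treated, mutant or younger group, and the comparisons are between starts, between classes of genes and between the libraries.

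Many mammalian genes can be transcribed from more than 1 promoter. An internal promoter gives a transcript with another first exon, which either leaves the protein as it is, or shortens or replaces its N-terminus where the start lies beyond the usual start codon. The 5′ end of a gene record is the most upstream start of any of its transcripts, including rare or incomplete ones, and need not be the promoter that most cells use. Promoters fall broadly into those in CpG islands, stretches rich in the dinucleotide CpG that stay unmethylated and accessible in most tissues, and those poor in CpG, which are more often restricted to certain cell types.

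Replicate 1 had 38674 peaks in the shorter list and 63793 in the longer one, and replicate 2 had 47661 and 79598. The absolute read depth is unknown. The tissue matched its label: 9 of 10 urothelial marker genes (all but Krt5) and 5 of 8 smooth muscle markers (Myh11, Mylk, Tpm2, Smtn and Synm, but not Acta2, Des or Tagln) had a start peak in both libraries, against 0 of 6 markers of liver, neurons and skeletal muscle. Bladder tissue is a mixture, and a small share of cells with a fully accessible site cannot be told apart from weak accessibility in most cells.

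The sequences of 5 members are given because CpG content differed between the open internal starts and the closed 5′ ends of most, but not all, members. Each run below holds the 100 bases before the start and 20 bases from the start on, 5′ to 3′ on the gene's strand, from the GRCm38.p6 sequence of RefSeq, which shares coordinates with mm10, and CpG dinucleotides are in capitals. Pef1 encodes a calcium-binding adaptor of protein export from the endoplasmic reticulum, Palld the actin-bundling protein palladin and Runx1 a transcription factor of blood formation. Glo1, which encodes glyoxalase 1, a detoxifier of methylglyoxal, and Arhgef7, which encodes the guanine nucleotide exchange factor beta-PIX, are shown as exceptions.
Pef1, open internal start, chr4:130107456-130107575, plus strand: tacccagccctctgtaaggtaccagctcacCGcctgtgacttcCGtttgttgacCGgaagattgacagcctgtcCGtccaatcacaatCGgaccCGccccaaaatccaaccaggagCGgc
Pef1, closed 5′ end, chr4:130102458-130102577, plus strand: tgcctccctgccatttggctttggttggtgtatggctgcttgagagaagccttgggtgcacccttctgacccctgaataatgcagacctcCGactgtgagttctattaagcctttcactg
Palld, open internal start, chr8:61591123-61591242, minus strand: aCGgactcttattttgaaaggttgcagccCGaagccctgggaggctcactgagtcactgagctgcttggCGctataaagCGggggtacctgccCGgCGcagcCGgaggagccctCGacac
Palld, closed 5′ end, chr8:61902671-61902790, minus strand: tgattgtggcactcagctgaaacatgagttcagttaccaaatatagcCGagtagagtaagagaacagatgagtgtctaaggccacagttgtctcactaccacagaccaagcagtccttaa
Runx1, open internal start, chr16:92697309-92697428, minus strand: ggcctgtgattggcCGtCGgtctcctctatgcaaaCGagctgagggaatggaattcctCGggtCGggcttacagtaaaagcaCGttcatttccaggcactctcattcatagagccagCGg
Runx1, closed 5′ end, chr16:92826130-92826249, minus strand: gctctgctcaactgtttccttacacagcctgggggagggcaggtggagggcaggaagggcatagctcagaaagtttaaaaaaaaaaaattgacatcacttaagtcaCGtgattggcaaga
Glo1, open internal start, chr17:30612640-30612759, minus strand: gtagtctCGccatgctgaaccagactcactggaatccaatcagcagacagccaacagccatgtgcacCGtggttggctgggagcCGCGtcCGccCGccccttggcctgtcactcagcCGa
Glo1, closed 5′ end, chr17:30626852-30626971, minus strand: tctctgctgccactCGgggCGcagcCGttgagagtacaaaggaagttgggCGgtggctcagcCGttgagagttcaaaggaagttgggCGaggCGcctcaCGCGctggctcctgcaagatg
Arhgef7, open internal start, chr8:11758217-11758336, plus strand: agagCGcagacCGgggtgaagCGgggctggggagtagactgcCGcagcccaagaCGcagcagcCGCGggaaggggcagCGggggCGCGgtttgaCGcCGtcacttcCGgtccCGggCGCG
Arhgef7, closed 5′ end, chr8:11727621-11727740, plus strand: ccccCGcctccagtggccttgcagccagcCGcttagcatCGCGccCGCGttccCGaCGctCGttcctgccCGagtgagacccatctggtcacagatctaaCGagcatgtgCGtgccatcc

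In the run of Pef1 there were 7 CpG dinucleotides at the open internal start and 1 at the closed 5′ end. The run of Palld held 8 at the internal start and 1 at the 5′ end, and that of Runx1 held 7 and 1. Glo1 and Arhgef7 had many CpG in both runs, with 7 at the internal start and 9 at the 5′ end in Glo1, and 16 at the internal start and 12 at the 5′ end in Arhgef7. The letters TATAAA were present on either strand of the internal run of Palld and in no other of these 10 runs. GGGCGG, the GC box, was present at the internal starts of Glo1 and Pef1 and at the 5′ end of Glo1.

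Peaks were most frequent close to the internal starts. The rule required a peak within 500 bases, and ties between starts could go to the one nearest the peak middle. The crowding there is thus largely built in. Replicate 1 had a peak over the base 50 before the internal start in 349 members (66.99%), and replicate 2 in 353 (67.8%). Over the start itself the counts were 343 in replicate 1 and 342 in replicate 2. At the 5′ ends, peaks were absent within 500 bases by the rule. At 3 kb downstream, the counts were 0 and 1 from the internal start and 23 in each library from the 5′ end. Peaks of internal starts can fall at that distance from the 5′ end, so this contrast too is shaped by the rule. The leading peak covered the start base in both libraries in 291 members (55.9%), in 1 library in 67 and in neither in 163 (31.3%). In 51 members (9.79%) it lay over 250 bases away in both libraries, so a peak assigned to a start need not be that start's own promoter. Of the members named here this held for Zbtb7a, Gpx4, Notch4, Ppp2r5a, Nr3c1, Lck, Pax5, Plekhg5, Grb10, Cacna1c and Scn8a, at 268 to 483 bases. Gpx4 is one example, with a peak at chr10:80053361-80053640 in replicate 1 and an assigned start at 80054035.

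**Figure D1:**
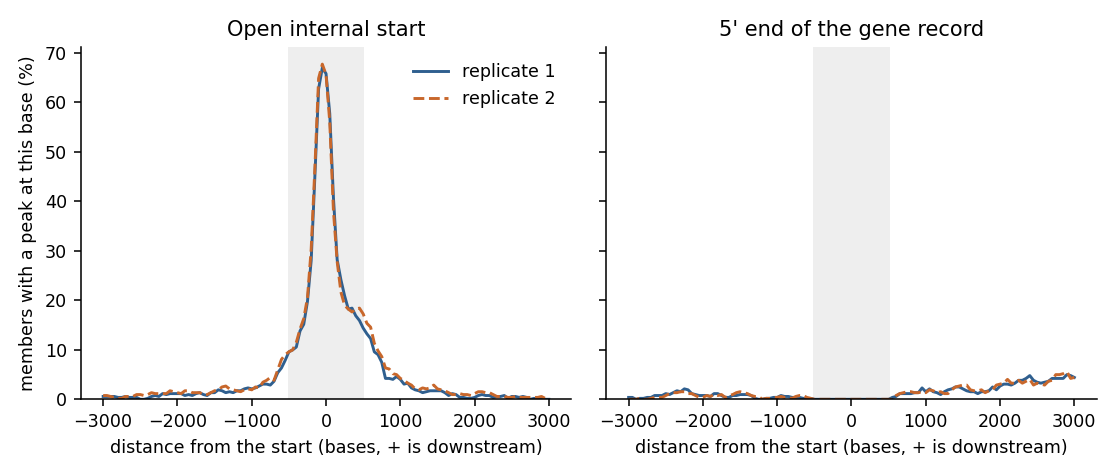
Share of the 521 members with a peak at each base from 3 kb upstream to 3 kb downstream of the open internal start (left) and of the gene 5′ end (right), for replicate 1 (solid) and replicate 2 (dashed). Grey marks the 500 bases on either side. Peaks were most frequent 50 bases before the internal start (66.99% and 67.8% of members). The crowding on the left is largely set by the rule, and the empty window on the right is set by it.

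Peak heights at the open internal starts were close between the animals. The height is a signal that the authors scaled, and its unit is not given in the sources used here. In replicate 1 it ranged from 0.465 to 8.03 with a median of 2.27, and in replicate 2 from 0.375 to 8.75 with a median of 2.17. Across the 521 members the log10 heights had a Pearson correlation of 0.953 and a Spearman correlation of 0.956, which describe sites that share a library and are not independent replicates. The log2 ratio of replicate 2 to replicate 1 had a median of -0.07 and an SD of 0.28. To compare libraries, each peak was also given its percentile among all peaks within 500 bases of any annotated start, of which there were 19588 in replicate 1 and 20332 in replicate 2. The median percentile of the members was 55.8 in replicate 1 and 58.1 in replicate 2. The 5′ end peaks of the 6211 eligible genes open at the 5′ end in both libraries, and at no internal start in both, had medians of 72.2 and 73.0. Unlike the members' peaks, these could lie within 500 bases of a start of another gene. Among the members, 49 exceeded the 90th percentile in both libraries and 20 lay under the 10th in both. The leading peaks of the libraries overlapped in 503 members and lay apart within the window in 18.

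**Figure D2:**
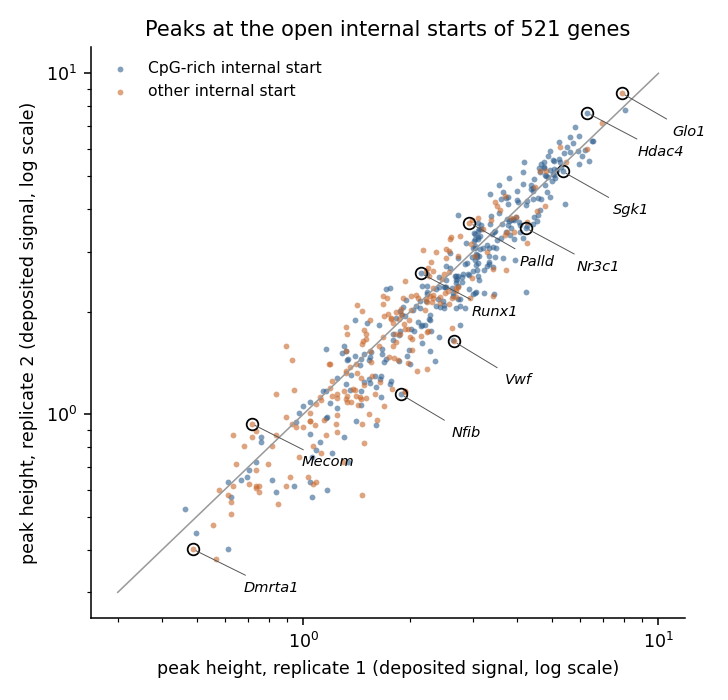
Height of the leading peak at the open internal start in replicate 1 (x axis) and replicate 2 (y axis), in the authors' deposited signal on log scales, 1 point per member, coloured by whether the start is CpG-rich; the line marks equal heights. The points follow the line over the whole range (Pearson 0.953), and ringed genes are named in the text.

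The closed 5′ ends were CpG-poor and most of the open internal starts were not. The CpG ratio is the number of CpG dinucleotides over the number that the C and G content would give by chance, taken from 250 bases before to 50 after the start. Its median over the members was 0.685 at the open internal start and 0.226 at their own 5′ end. Over all eligible genes the order was the other way round, with 0.243 at internal starts and 0.641 at 5′ ends; where no internal start was open in both libraries, the one with the most transcripts stands for the gene. The ratio was higher at the internal start in 439 of 521 members (84.3%), in 313 of the 859 genes open at both kinds of start (36.4%) and in 23.4% of all eligible genes. A start with a ratio of at least 0.6 and a GC content of at least 50% was called CpG-rich. That held for 306 open internal starts of members (58.7%) and for 33 of their 5′ ends (6.33%). The internal starts of genes open at both were CpG-rich in 43.8%. Open 5′ ends had a median ratio of 0.690 in those genes, and of 0.794 in the 6211 genes open at the 5′ end in both libraries and at no internal start in both, of which 75.2% were CpG-rich. Genes with no qualifying peak at either kind of start, 2890 in number, had 5′ ends about as poor in CpG as those of the members, with a median ratio of 0.175 and 6.61% CpG-rich.

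Not all members had this contrast. The internal start alone was CpG-rich in 288 members (55.3%), and neither start was in 200 (38.4%). Both were in 18, and the 5′ end alone was in 15. GC content had a median of 61.3% at the internal start and 49.7% at the 5′ end. Repeats annotated in the reference covered a median of 8.09% of the 1001 bases around internal starts and 16.4% around 5′ ends. They filled over 50% of that stretch at 4 internal starts (0.768%) and 45 5′ ends (8.64%). At 5′ ends that share was 1.43% over all eligible genes and 0.233% over genes open at both. Over genes with no qualifying peak at either kind of start it was 3.77%. Short reads are harder to place in repeats, and the part this has in the absence of peaks was not tested.

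**Figure D3:**
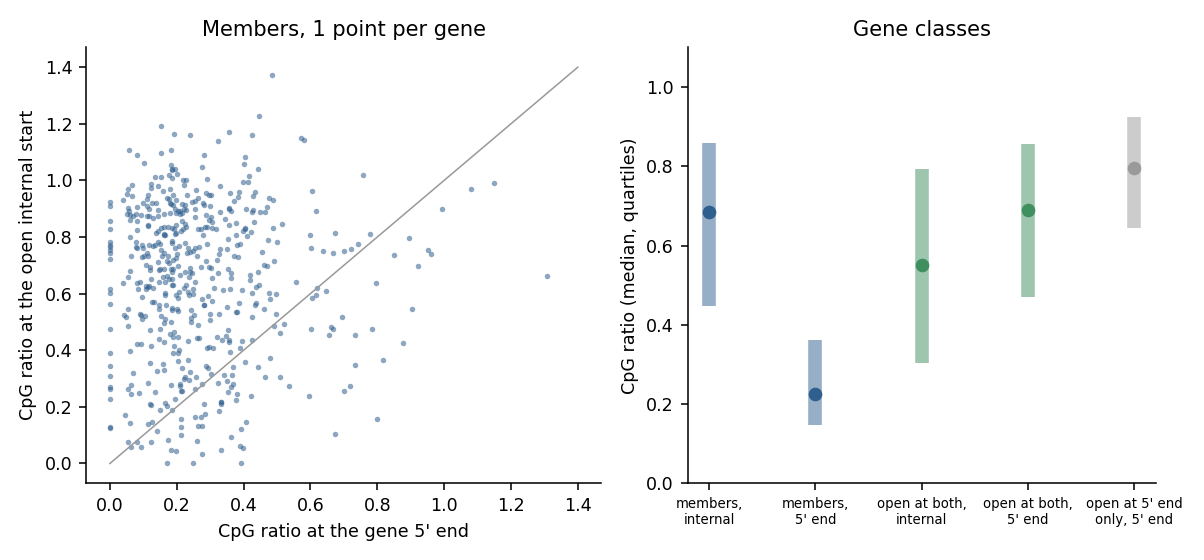
Left, CpG ratio at the open internal start (y axis) and at the gene 5′ end (x axis) of each member, with a line of equality; 439 of 521 points lie above it. Right, median (point) and quartiles (bar) for members, for the 859 genes open at both, and for 5′ ends of the 6211 genes open there only; the members' internal starts (0.685) sit near the 5′ ends of the 859 (0.690) and below those of the 6211 (0.794).

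CpG-rich and CpG-poor members differed in several ways. The 306 members with a CpG-rich internal start had a median percentile of 66.2 there, and the 215 others had 45.1. A transcript that the annotation ranks as a principal isoform began within 500 bases of the internal start in 74.8% of the CpG-rich members and in 50.2% of the others. The internal start lay beyond the start codon in 22.5% of the CpG-rich members and 46.5% of the others.

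Several consensus sequences differed in frequency between the open starts and the closed ones. GGGCGG, the GC box bound by SP and KLF factors, was present on either strand at 59.5% of the members' internal starts and 15.2% of their 5′ ends, in the same 300 bases. The share was 43.7% over the 5′ ends of all 20807 autosomal protein-coding genes and 15.2% over 34167 internal starts. CCGGAAG, a consensus of ETS factors, was found at 11.3% of the members' internal starts, 3.07% of their 5′ ends, 11% of all 5′ ends and 3.35% of all internal starts. The full CRE palindrome, which ATF and CREB proteins bind, was found at 3.07% of the members' internal starts and 0.384% of their 5′ ends. It was at 2.43% of all 5′ ends and 0.732% of all internal starts. TATAAA ran the other way, at 5.37% of the members' internal starts, 12.9% of their 5′ ends, 12.7% of all 5′ ends and 15.6% of all internal starts. So did the CCAAT box, at 29% of the members' internal starts and 38% of their 5′ ends. It was at 38.6% of all 5′ ends and 32.3% of all internal starts. AGATAA, bound by GATA factors, was at 5.76% of the members' internal starts and 10.7% of their 5′ ends. It was at 9.94% of all 5′ ends and 13.7% of all internal starts. TGTGGT, bound by RUNX factors, was at 12.3%, 20.2%, 15.4% and 19.9% in the same order. The AP-1 site TGANTCA was at 4.99%, 8.06%, 6.88% and 8.43% in that order, and the CArG box of serum response factor at 1.73%, 1.15%, 1.4% and 1.63%. The internal starts of the 859 genes open at both had GGGCGG in 50.8%, CCGGAAG in 8.85%, CRE in 2.21% and TATAAA in 5.94%. They had AGATAA in 7.1%, TGTGGT in 15.6%, the AP-1 site in 7.57%, the CArG box in 1.75% and the CCAAT box in 32.1%. GGGCGG and CCGGAAG contain CpG, while TATAAA and AGATAA do not. The part of base composition in these shares was not tested, and a match is not a bound site.

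Footprints, short protected stretches inside a peak that the authors listed separately, were present in the leading peaks of nearly all members. The median was 4 footprints per peak in both libraries, and it was also 4 in both at the 5′ end peaks of the 6211 genes open there, but the quartiles were lower, 2 and 5 at the members' internal starts against 3 and 6 at those 5′ ends in both libraries. Per 100 bases of peak the members' medians were 1.5 in replicate 1 and 1.47 in replicate 2, against 1.61 and 1.67 at those 5′ ends. No footprint was listed in the leading peak of 15 members in replicate 1 (2.88%) and 13 in replicate 2 (2.5%), against 105 (1.69%) and 88 (1.42%) of the 6211 5′ ends. Footprints were most numerous just upstream of the start. In replicate 1, 353 had their middle in the 50 bases before the 521 internal starts, and in replicate 2, 348. In the 50 bases from the start on the counts were 240 and 248. The rule placed peaks at these starts, and the part of peak cover in this pattern was not tested. Peaks themselves were a median of 220 bases wide in replicate 1 and 240 in replicate 2, against 260 in both at the 5′ ends. Peaks near a start of another gene were left out at internal starts but kept at those 5′ ends.

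The annotation supported the internal starts of the members more often than their 5′ ends. Where open internal starts tied on percentile, the one with more transcripts within 500 bases was described. The 5′ end offered no such choice, and the part of this in the shares below was not tested. A transcript tagged basic, the subset of well-formed models of the annotation, began within 500 bases of the open internal start in 400 members (76.8%) and of the 5′ end in 288 (55.3%). Over all eligible genes the share at the 5′ end was 90.1%, and over the closed genes it was 86.8%. At internal starts it was 35.6% over all eligible genes, 57.7% over genes open at both and 62.3% over the closed genes. The highest transcript support level was held by a transcript at 403 internal starts (77.4%) and 219 5′ ends (42.0%). Over all eligible genes these shares were 31.4% and 74.5%, and over genes open at both 59.5% and 67.3%. Principal isoforms began at the internal start alone in 258 members (49.5%), against 10.9% of eligible genes. They began at the 5′ end alone in 117 (22.5%), against 69% of eligible genes. In the 233 members whose 5′ end had no basic transcript, the median percentile of the internal peak was 64.0 and 67.4% of internal starts were CpG-rich. In the 288 with a basic transcript at the 5′ end these values were 52.0 and 51.7%.

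The membership depended on which start is counted as the gene's 5′ end. With the most upstream start of a basic transcript in that place and every internal start kept, a choice made after these values were seen, there were 338 such genes among 10955 eligible ones (3.09%), and 318 of them were among the 521. A stretch with a listed per-site FDR, which the authors listed up to 0.05, lay within 500 bases of the 5′ end of 10 members in replicate 1 and 13 in replicate 2, and of 70 and 84 of the 2890 closed genes. Over all eligible genes the shares were 68.9% and 69.3%; the low counts of members and closed genes are largely fixed by the absence of peaks there.

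The distance from the 5′ end to the open internal start had a median of 10.9 kb and ranged from 2.005 to 874.5 kb. It was under 5 kb in 138 members and over 100 kb in 36. The open start lay at a median of 35.0% of the gene's length. Members had a median of 5 internal starts, against 2 over all eligible genes and 4 in the genes open at both, so they offered more starts at which a peak could fall. In 186 members (35.7%) replicate 1 had at least 1 peak overlapping the stretch between the 2 starts, over 500 bases from each. In replicate 2 this held for 217 (41.7%). The leading peak was itself counted where it reached into that stretch, as in Nr3c1, Ppp2r5a and Pax5. These counts are thus not of other peaks alone. At an own start within 2 kb of the 5′ end, outside the 500-base window, 25 members had a peak. Zbtb7a, Tcf4 and Grb10 were among them, with the nearest peak 704, 905 and 826 bases from the 5′ end. In Mecom the nearest peak lay 708 bases away.

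The longest coding sequence annotated from each start differed in length in most members. In 169 members (32.4%) the open internal start lay downstream of the start codon of the gene's longest coding sequence, so a transcript from there cannot encode that N-terminus. The share was 54.0% in the genes open at both and 67.2% over all eligible genes. Protein-coding transcripts began within 500 bases of both starts in a majority of members. The longest coding sequence was longer from the internal start in 188, shorter in 85 and the same in 74. In 90 only the internal start had a protein-coding transcript, in 73 only the 5′ end had one and in 11 neither had. A short coding sequence at a 5′ end can be an incomplete model.

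**Figure D4:**
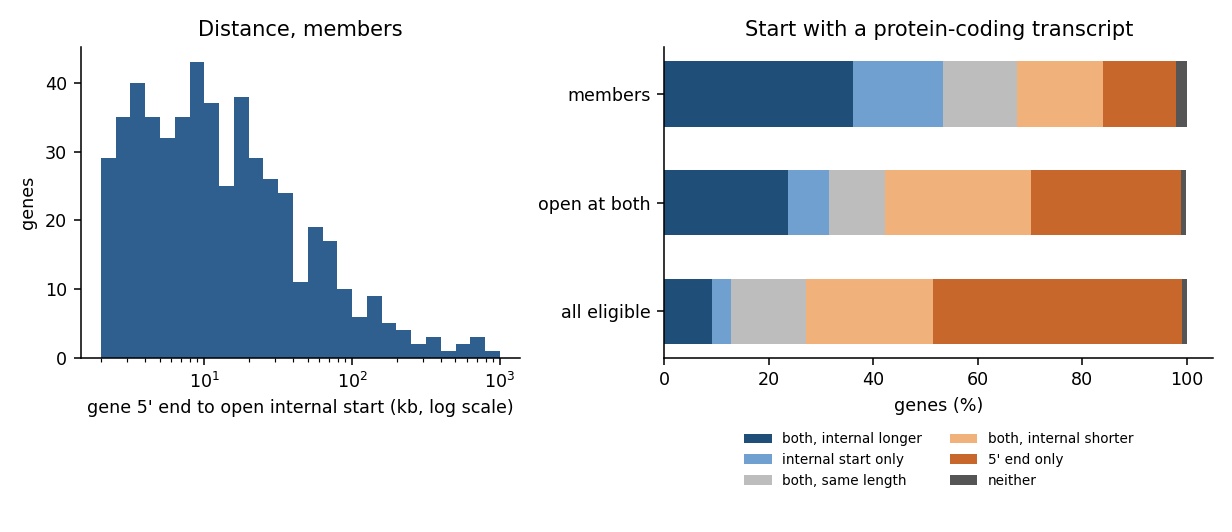
Left, distance from the gene 5′ end to the open internal start of the 521 members (log scale, kb). Right, share of genes (%) by which start has a protein-coding transcript within 500 bases and which gives the longer coding sequence, for members, the 859 genes open at both and all 11270 eligible genes; the internal start gave the longer coding sequence or the only one in 188 and 90 members.

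The 20 members with the highest mean percentiles ranged over metabolism, chromatin, trafficking and signalling. Glo1 had heights of 7.88 in replicate 1 and 8.75 in replicate 2, at percentile 99.8 ± 0.0515 (SD, n = 2, as for all percentiles below). Its open start, 14.2 kb into the gene, was annotated with the same coding sequence of 184 codons as its 5′ end. Pef1 had heights of 8.03 and 7.80 at 5.00 kb, at percentile 99.7 ± 0.125, again with 275 codons from either start. Plin3, which encodes a coat protein of lipid droplets, had heights of 6.95 and 7.13 at 2.36 kb. Its 437-codon reading frame began at the open start, and the closed 5′ end carried only a model of 134 codons that is not basic. All 3 genes stood near the top of both libraries.

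Chromatin regulators and transcription factors followed. Hdac4, a class IIa histone deacetylase, had heights of 6.30 in replicate 1 and 7.65 in replicate 2 at a start 15.4 kb downstream, on chr1 at 92180341. The CpG ratio there was 0.982, against 0.144 at the 5′ end, whose transcript is not protein-coding. Kat6b, a histone acetyltransferase, had heights of 6.50 and 6.31, and the open start gave 1872 codons against 79 at the 5′ end. Zbtb7a, a zinc finger repressor, had 5.84 and 6.96 with 569 codons against 174. Stag1, a subunit of the cohesin ring, had 6.21 and 5.97, and Zmynd8, a reader of histone marks, 5.28 and 6.09. In each of these 5 genes the closed 5′ end had no basic transcript.

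Metabolic and transport genes in the same range were Gpx4, which reduces lipid hydroperoxides (5.99 in replicate 1 and 6.54 in replicate 2), and Slc39a10, a zinc importer (6.29 and 5.99). Genes of immune signalling among them were Tollip, an adaptor of Toll and interleukin-1 receptors (5.62 and 6.49), and Tnip1, an inhibitor of NF-kappaB that binds A20 (6.36 and 5.55). Cmtr2, an mRNA cap methyltransferase, had 5.95 and 5.92. Aktip, which binds the kinase AKT, had 5.75 and 6.22 at a start 65.95 kb into the gene. Ppp2r5a, a regulatory subunit of protein phosphatase 2A, had 5.96 and 5.40, Gcc1, a golgin, 5.64 and 5.86, Ankrd37 5.26 and 6.30, and Fam118a 6.53 and 6.31. Tbc1d14, a regulator of recycling endosomes, had 6.10 and 5.72.

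Notch4, a receptor of vascular endothelium, had an assigned start with no coding sequence. Its heights were 5.52 in replicate 1 and 6.06 in replicate 2, at percentile 96.7 ± 0.926, but the assigned start, 22.8 kb into the gene, began only a processed transcript. The peak lay 440 bases from that start in replicate 1 and 420 in replicate 2, and Notch4 was not a member with a window of 250 bases or with the peak midpoint required in the window. The 1964-codon receptor is annotated from the closed 5′ end. Of the 20 highest, 18 had the open start upstream of the start codon, 16 were CpG-rich there and 14 had no basic transcript at the 5′ end.

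Transcription factors with internal promoters described in the literature were among the members. Of 70 eligible genes on a list of transcription factors 7 were members (10%), and of 89 on a list of genes known for internal promoters 9 were (10.1%), beside 4.62% of all eligible genes. The listed genes had medians of 4 and 7 internal starts, against 2 in all eligible genes, and the lists were drawn up with earlier results of these data known. Runx1 is transcribed from a distal and a proximal promoter, of which the distal one is at the 5′ end. Its proximal start, 128.8 kb downstream, had heights of 2.14 in replicate 1 and 2.59 in replicate 2, at percentile 59.4 ± 8.97. The longest coding sequence there was 387 codons, against 465 at the distal start, and the CpG ratios were 1.01 at the proximal and 0.187 at the distal start. A higher peak of 3.57 in replicate 1 and 3.26 in replicate 2 lay 127.2 to 127.5 kb from the 5′ end, upstream of that start.

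Nr3c1, the glucocorticoid receptor gene, has a cluster of alternative first exons. There were 6 open annotated starts, and the leading one, 28.1 kb downstream, had heights of 4.23 in replicate 1 and 3.52 in replicate 2 (percentile 83.0 ± 5.41). Tcf4, a basic helix-loop-helix factor, had 2.49 and 2.09 at a start about 250 kb downstream. At Nfib, a nuclear factor I gene, the heights were 1.88 and 1.14 at 200.0 kb, and at Nfic, its paralog, 1.16 and 1.55 at 28.5 kb, in leading peaks that did not overlap between the libraries. The start of Nfib carried a coding sequence of 570 codons, against 174 at the 5′ end. Mecom, a zinc finger transcription factor, had 0.714 and 0.938 at 38.5 kb, again in leading peaks that did not overlap. Its open start carried 1051 codons, and its 5′ end began only a nonsense-mediated decay transcript. Mef2c, a MADS-box factor of muscle, had 0.612 and 0.634, near the bottom of the members (percentile 5.90 ± 3.74).

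Genes of the actin cytoskeleton and of adhesion gave 5 members among 64 eligible (7.81%), beside 4.62% of all eligible genes, and had a median of 5 internal starts, against 2. Palld had heights of 2.94 in replicate 1 and 3.64 in replicate 2 at a start 311.5 kb from the 5′ end, which codes for 663 residues, against 1408 from the 5′ end. Starts of Palld were also open at a weaker site near 142.6 kb (0.839 and 0.741) and at one near 386.8 kb (2.09 and 1.63), so that 3 separate sites were open and the most upstream one was not. Tpm3, a tropomyosin gene, had 2.77 and 3.34 at a start 6.89 kb downstream, with 248 codons against 285 at the 5′ end, the 2 lengths of its short and long tropomyosins. Macf1, a large linker of actin and microtubules, had 2.47 and 2.15 at a start 272.1 kb downstream with 1358 codons against 7355. Synpo, which encodes synaptopodin, had 1.64 and 1.27, and Sorbs3, which encodes the vinculin-binding protein vinexin, 1.99 and 1.69. In 4 of these 5, all but Synpo, the longer coding sequence was that of the closed 5′ end. Palld was also the only member among 22 eligible smooth muscle genes.

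**Figure D5:**
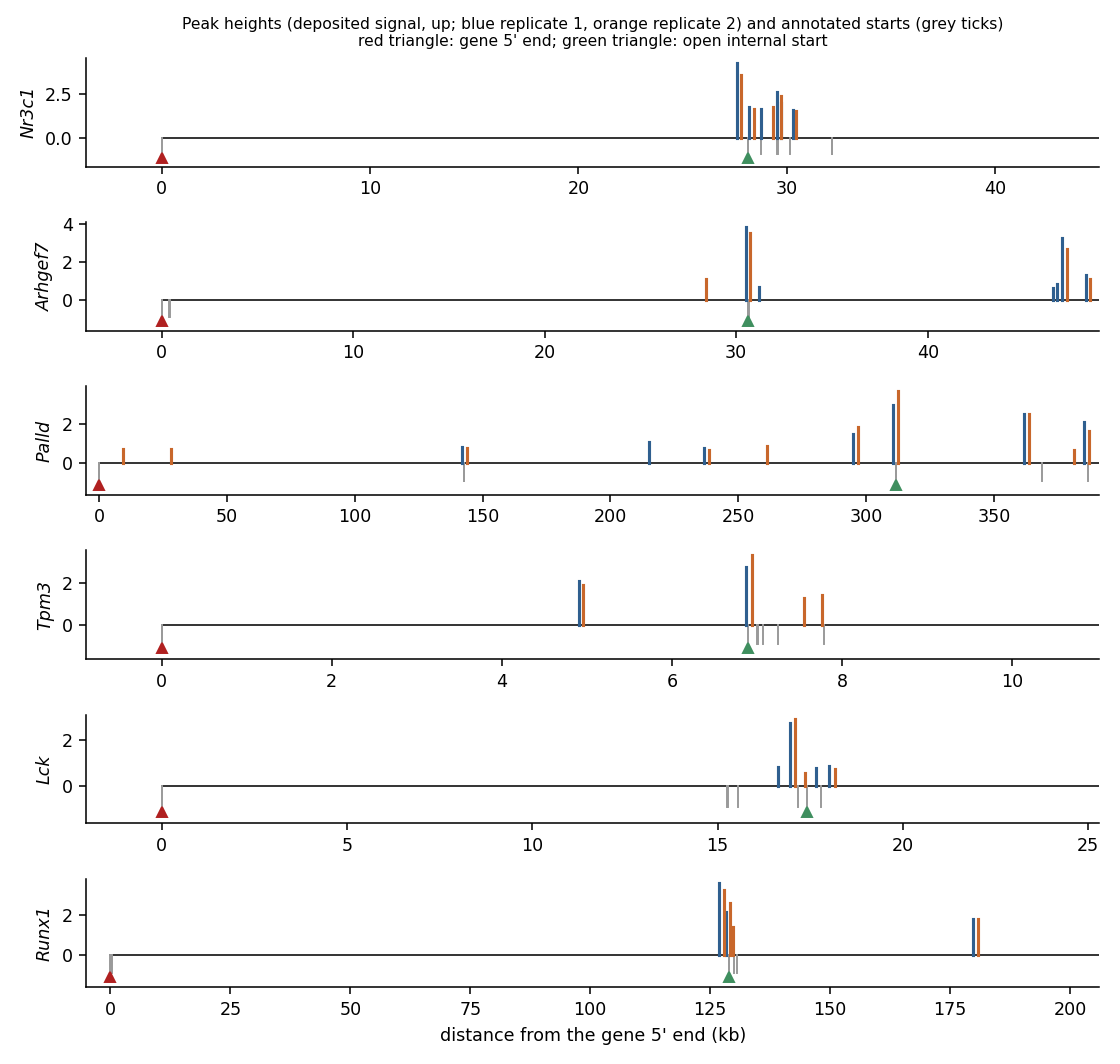
Peaks of the shorter lists (bars, height in the authors' deposited signal; blue replicate 1, orange replicate 2) and annotated starts (grey ticks) along the 6 listed members with the highest percentiles, by distance from the gene 5′ end in kb. No bar stands at the red triangle (gene 5′ end) of any of the 6 genes, while both libraries have one within 500 bases of the green triangle (open internal start); in Palld the leading start lies 311.5 kb downstream.

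Signalling genes gave 7 members among 68 eligible (10.3%), beside the same 4.62%, with a median of 5.5 internal starts, against 2 in all eligible genes. Arhgef7 had heights of 3.86 in replicate 1 and 3.51 in replicate 2 at 30.6 kb (percentile 80.7 ± 2.33). Its nearest peak to the 5′ end lay 510 bases away, just outside the window. Fgfr1, a fibroblast growth factor receptor, had 2.13 and 2.14 at 5.24 kb, where the full receptor of 833 codons begins, against a model of 50 codons at the 5′ end. Rgs3, a regulator of G protein signalling, had 1.77 and 1.92 at 139.8 kb with no protein-coding transcript there. The exchange factors Rapgef5 and Rasgrp3 had 1.17 and 0.982, and 0.794 and 0.714. Grb10, an adaptor of the insulin receptor, had 1.34 and 0.723, and its paralog Grb14 had 1.05 and 0.750. Cacna1c, the L-type calcium channel of detrusor muscle, had 0.941 and 0.616 at a start 87.8 kb downstream with 2164 codons against 2194 (percentile 11.5 ± 5.30).

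The 10 cell type lists gave 4 members among 99 eligible genes (4.04%), close to the 4.62% of all eligible genes. None of 10 eligible urothelial, 13 fibroblast, 6 myeloid, 7 glial, 6 skeletal muscle, 10 neuronal or 4 hepatocyte genes was one. Vwf, 1 of 11 endothelial genes, had heights of 2.65 in replicate 1 and 1.63 in replicate 2 at a start that begins only a processed transcript. Among 10 lymphocyte genes the members were Lck, a kinase of T cells, with 2.73 and 2.88, and Pax5, a factor of B cells, with 2.05 and 1.76. The Lck start carried only a retained-intron transcript, and its 509-codon kinase is annotated from the closed 5′ end. In Pax5 the CpG ratio was 0.810 at the internal start and 0.779 at the 5′ end, but the GC content was 66.3% and 38%, so that only the internal start was CpG-rich. Of the 23 members on any list, 14 had the open start downstream of the start codon.

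The 5 members with the longest distances were Nrg1, Zfhx3, Dab1, Celf2 and Adgrb3. Nrg1, a ligand of ERBB receptors, was open at a start 874.5 kb downstream with heights of 1.71 in replicate 1 and 2.33 in replicate 2. The CpG ratio was 0.754 at the open start, against 0.951 at the 5′ end, and the coding sequences were of like length, with 663 codons from the open start and 652 from the 5′ end. Zfhx3, a homeodomain zinc finger factor, had 1.599 and 1.205 at 772.0 kb with 3723 codons from both starts. Dab1, an adaptor of reelin signalling, had 1.16 and 1.17 at 747.8 kb, Celf2, an RNA-binding protein, 1.76 and 1.22 at 637.0 kb, and Adgrb3, an adhesion receptor of neurons, 1.30 and 0.857 at 600.9 kb.

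A few members were open at several sites over 1 kb apart, 37 in all. Stox2 had 4 such sites with a leading pair of heights of 2.30 in replicate 1 and 2.13 in replicate 2. Plekhg5, an activator of RhoA, had 3, with 1.97 and 1.78. Sgk1, a kinase induced by serum and glucocorticoids, had 2, and its leading start, 112.5 kb downstream, was among the strongest with 5.37 and 5.15 (percentile 94.5 ± 1.15). There the coding sequence was 431 codons, against 524 at the 5′ end.

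The weakest members lay close to the lower end of the peak lists. Dmrta1 had heights of 0.488 in replicate 1 and 0.402 in replicate 2, Astn1, a neuronal migration protein, 0.567 and 0.375, Atp6v1c2, a proton pump subunit, 0.612 and 0.402 in peaks that did not overlap, and the olfactory receptor gene Olfr373 0.556 and 0.473. Olfactory receptors form a large family of similar copies, so its reads are uncertain. At the limits of the rule, Scn8a was a member with its nearest peak 503 bases from the 5′ end, and Arhgap29, at 500 bases, was not. Likewise Snrpc was one with an open start 2005 bases downstream, and Clec4g, at 1998 bases, was not.

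Set against all eligible genes, an internal start was open in both libraries in 1380 of 11270 (12.2%), and a 5′ end had a peak in both in 6867 (60.9%). Peaks near a start of another gene counted only at 5′ ends. The members are 521 of those 1380, and the other 859 had a peak at the 5′ end in at least 1 of the 4 lists. The internal peaks of these 859 ranked lower than those of the members, with median percentiles of 47.2 in replicate 1 and 50.4 in replicate 2, a difference that was not tested since the members were chosen on these peaks.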

How the data were processed

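DNase-seq was carried out on 2 urinary bladder libraries, replicate 1 and replicate 2. Per the labels and the deposited notes, the authors made each list for 1 library at a time from its mm10 alignments and a mappability reference. Which aligner and callers they used is not given in the sources used here. Each peak height is a signal value deposited by the authors, whose scale no header states. The FDR that the authors deposited per site is an adjusted p-value, listed up to 0.05, and every footprint carries the same deposited value, 0.01. The shorter of the 2 peak lists of a library was the main one, and both were used for the absence of peaks at 5′ ends.

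Starts, coding sequences and tags came from GENCODE release 21, and sequence and repeats from GRCm38 patch 6, both in mm10 coordinates. Where several internal starts were open, the one with the highest mean percentile led. Ties went to the start with more transcripts within 500 bases, then to the one nearest the middle of the peaks. Named genes were the 20 highest and 5 lowest by mean percentile, members on any of 14 gene lists, the 5 with the longest distance and the 5 with the most open sites over 1 kb apart; the letters of 18 consensus sequences were searched on both strands. 1 gene chosen by these rules is not reported here. Sequences were listed for 7 genes by rule, and 5 are printed. The members, lists and rules were chosen with earlier results of these data known. With 1 group of 2 libraries no test was run and no p-value is given; errors are SDs over 2 libraries. The selection was tested on simulated peaks. Python 3.11.15, numpy 2.4.6, scipy 1.17.1, pysam 0.24.0 and matplotlib 3.10.9 were used.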

Additional observations from a re-analysis of the deposited data

How the results depend on the processing

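Of the 17 alternatives to the member rule, all but 2 gave between 378 and 655 genes, within 1.5 times the 521. Both exceptions, added after seeing the data, took the most upstream basic start as the 5′ end, where the share with a basic transcript is 100% by construction. With every internal start kept, there were 338 genes (318 shared with the 521), a median CpG ratio of 0.638 at internal starts and 45.3% downstream of the start codon. With internal starts also limited to basic transcripts, there were 231 (218 shared) and 25.5%, against 405 genes with that limit alone. The share downstream of the start codon was 36.9% with a distance over 5 kb, 21.9% with internal starts of protein-coding transcripts and 16.3% with those of basic transcripts. The share with a basic transcript at the 5′ end was 50.3% with internal starts of protein-coding transcripts and 48.9% with those of basic transcripts. The median CpG ratio at internal starts was 0.625 with the longer peak list, 0.723 with basic transcripts and 0.738 with the higher 50% of peaks. Leaving out 1 library gave 607 to 647 genes, CpG ratios of 0.639 to 0.687 at internal starts and 0.229 to 0.234 at 5′ ends, 33.6% to 37.4% downstream of the start codon and 57.5% to 59.0% with a basic 5′ end. The fewer or more starts and libraries of each alternative are its own construction; other causes were not tested. In 1001 bases the CpG ratios were 0.661 at internal starts and 0.236 at 5′ ends. Of the 56 named members 15, and of all members 97, met the rule under each of the 17 alternatives. No paired analysis was possible because the series has 1 group. The unknown depth limits what the absence of a peak at a 5′ end shows.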
